A study of Arabidopsis thaliana with 6 samples.

Results

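The 5 genes described here belong to families with secreted defence proteins, and neither secretion nor defence was measured. They are AT4G33720 and AT4G07820 (PR1-like), AT2G43590 (chitinase), AT5G39580 (peroxidase) and AT4G12490 (lipid transfer protein of the AZI family). They were chosen from measured values of these same arrays, with their differences between mutants and wild type known, so those levels and differences are a description and carry no test. Each of the 5 loci was measured by 1 probe set that named no other gene, out of 13286 genes named in this way. Expression was measured on 6 arrays in whole seedlings of Arabidopsis thaliana in the Col-0 background, with 2 arrays of wild type, 2 of nar1-4 and 2 of nbp35-3. The labels write the mutant genotypes as nar1-4/- and nbp35-3/- without saying what the sign means, and one field of the nbp35 labels names the allele nbp35-4 instead. All plants were 2 weeks old and had grown on MS plates at 22 °C with 16 h of light and 8 h of dark. NAR1 and NBP35 act in the cytosolic pathway that builds iron-sulphur clusters and hands them to enzymes, including those of the nucleus, and the title describes both mutants as deficient in it.

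Plant cells secrete defence proteins into the apoplast, the space of walls and fluid outside the plasma membrane where many microbes grow. PR1 and its relatives share the CAP fold, PR1 itself accumulates in response to salicylic acid, and PR1-like genes differ widely in where and when they are expressed. Chitinases cut chitin of fungal walls, class III peroxidases are haem enzymes that use or produce hydrogen peroxide in the wall, and AZI1, a founding member of its family, takes part in the priming of systemic resistance. In whole seedlings a lower value can mean fewer cells of a type or less RNA per cell, and these cannot be told apart.

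All values are log2 expression values that the authors normalized with RMA, so a difference of 1 is 2-fold. The arrays grouped by replicate number more than by genotype: the correlation across probe sets was 0.9873 to 0.9943 between genotypes at one number, and 0.9679 to 0.9698 between the 2 arrays of a genotype. What the arrays of one number have in common is unstated, so each difference is given as a mean and also within number 1 and within number 2, where 1 mutant array meets 1 wild-type array. The first quartile of the arrays lay between 3.48 and 3.58, values under it are called dim here, and differences that involve a dim value are uncertain in size because no detection calls were used. Green tissue and root were both present, with LHCB4.1, a light-harvesting protein, at 12.86 to 13.17 and PYK10, a root glucosidase, at 11.70 to 12.17 on the 6 arrays. The root hair expansins EXPA7 and EXPA18 stood at 6.05 and 6.44 in nbp35-3 replicate 1, and at 4.75 to 5.40 and 5.37 to 5.74 on the other 5 arrays. Of the seed genes, M17 was at 3.99 in nbp35-3 replicate 2 and at 2.18 to 2.71 elsewhere.

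In nar1-4 the PR1-like and chitinase transcripts stood below wild type, and the peroxidase and AZI transcripts above it, on both arrays. In nbp35-3 the chitinase was lower and the peroxidase higher on both arrays, the peroxidase by only 0.27 within number 1 and by 3.42 within number 2. The PR1-like and AZI transcripts changed direction between the numbers. The genotype order of the means ran from nar1-4 through nbp35-3 to wild type for AT4G33720, AT4G07820 and AT2G43590. For AT4G12490 it ran the other way, from wild type through nbp35-3 to nar1-4. Pooled over numbers, the nar1-4 and nbp35-3 arrays overlapped for 4 of the 5 genes, all but the chitinase, while within numbers the 2 mutants kept one order for every gene but AT5G39580. Of the 94 family relatives described below, 11.7% had both nbp35-3 arrays above both nar1-4 arrays and 6.38% had both below. The share over all probe sets was not counted for this comparison, so nothing is read from the count of 4.

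**Figure D1:**
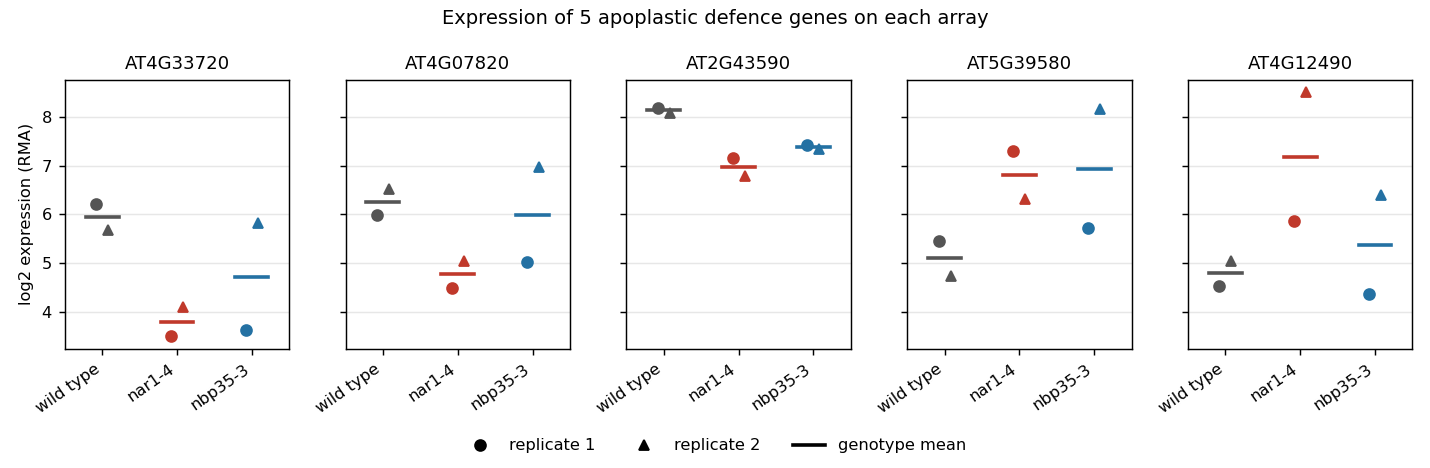
Log2 expression (RMA, vertical axis) of the 5 genes on each of the 6 arrays, by genotype, with circles for replicate 1, triangles for replicate 2 and a bar at the genotype mean. AT2G43590 in both mutants lies under both wild-type arrays, AT5G39580 lies over them, and the 2 nbp35-3 arrays are far apart for every gene but AT2G43590.

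AT4G33720 encodes a CAP protein of the PR1 type. It was at 6.21 and 5.68 in wild-type replicates 1 and 2, at 3.49 and 4.1 in nar1-4, and at 3.62 and 5.82 in nbp35-3. Both nar1-4 arrays and the first nbp35-3 array were low, and the second nbp35-3 array lay between the 2 wild-type values. The nar1-4 mean of 3.79 ± 0.43 (SD, n = 2) was 4.44-fold under the wild-type mean of 5.94 ± 0.37, a log2 difference of -2.15 ± 0.75 (SE of the limma fit). Within numbers 1 and 2 the difference was -2.72 and -1.58. The nbp35-3 mean of 4.72 ± 1.55 gave -1.22 ± 0.75, made up of -2.59 within number 1 and 0.14 within number 2. In nar1-4 replicate 1 the transcript was just dim, since the first quartile of that array was 3.52, so the nar1-4 differences that include it are uncertain in size.

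AT4G07820, the other PR1-like gene, followed the same order of arrays at the low end. It was at 5.98 and 6.53 in wild type, at 4.49 and 5.04 in nar1-4, and at 5.02 and 6.97 in nbp35-3. The nar1-4 arrays and nbp35-3 replicate 1 were again the lowest 3, and nbp35-3 replicate 2 was the highest of the 6. The nar1-4 mean of 4.77 ± 0.39 (SD, n = 2) was 2.81-fold under the wild-type mean of 6.26 ± 0.38 (log2 -1.49 ± 0.67, SE), and each number on its own also gave -1.49. The nbp35-3 mean of 5.99 ± 1.38 differed from wild type by -0.26 ± 0.67, with -0.97 within number 1 and 0.44 within number 2. The 2 PR1-like transcripts correlated at 0.89 over the 6 arrays, and at 0.90 once the mean of each number was subtracted. The first value includes differences that the arrays of a number share, and both rest on 6 arrays.

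AT2G43590, of the chitinase family, was the steadiest of the 5 within each genotype. It was at 8.20 and 8.08 in wild type, at 7.17 and 6.79 in nar1-4, and at 7.43 and 7.35 in nbp35-3. The 3 genotypes did not overlap, with wild type highest and nar1-4 lowest. The nar1-4 mean of 6.98 ± 0.27 (SD, n = 2) was 2.24-fold under the wild-type mean of 8.14 ± 0.09, a log2 difference of -1.16 ± 0.18 (SE) that was -1.04 in number 1 and -1.29 in number 2. The nbp35-3 mean of 7.39 ± 0.06 was 1.68-fold under wild type, at -0.77 in number 1 and -0.73 in number 2. Between numbers the gene moved by at most 0.37 on the log2 scale, in nar1-4.

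AT5G39580 encodes a class III peroxidase. It was at 5.45 and 4.74 in wild type, at 7.30 and 6.32 in nar1-4, and at 5.72 and 8.16 in nbp35-3. All 4 mutant arrays were over both wild-type arrays, nbp35-3 replicate 1 by the smallest margin and nbp35-3 replicate 2 by the largest. The nar1-4 mean of 6.81 ± 0.69 (SD, n = 2) was 3.27-fold over the wild-type mean of 5.10 ± 0.50 (log2 1.71 ± 0.87, SE). The pair of replicates 1 gave 1.84 and the pair of replicates 2 gave 1.57. The nbp35-3 mean of 6.94 ± 1.73 was 3.59-fold over wild type (log2 1.84 ± 0.87), but the difference was 0.27 within number 1 and 3.42 within number 2. A single nbp35-3 array therefore set most of that mean: without replicate 1 the log2 difference was 3.06, and without replicate 2 it was 0.62.

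AT4G12490, of the AZI family, had the widest span of the 5 genes, 4.16 log2 units over the 6 arrays. It was at 4.53 and 5.05 in wild type, at 5.86 and 8.52 in nar1-4, and at 4.36 and 6.40 in nbp35-3. Both nar1-4 arrays were over wild type, nbp35-3 replicate 2 was over it too, and nbp35-3 replicate 1 was the lowest of the 6. The nar1-4 mean of 7.19 ± 1.88 (SD, n = 2) was 5.27-fold over the wild-type mean of 4.79 ± 0.37 (log2 2.40 ± 1.08, SE). The pair of replicates 1 gave 1.33 and the pair of replicates 2 gave 3.46. Without nar1-4 replicate 1 the log2 difference was 3.73, and without replicate 2 it was 1.07. The nbp35-3 mean of 5.38 ± 1.44 differed from wild type by 0.59 ± 1.08, with -0.17 within number 1 and 1.34 within number 2. In wild type the gene was 0.53 higher in number 2 than in number 1, against 2.66 in nar1-4 and 2.04 in nbp35-3.

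Counted over the 5 genes, 3 had both nar1-4 arrays under both wild-type arrays and 2 had them over. Among all 22746 probe sets tested, 11.4% had both nar1-4 arrays lower than wild type in this sense and 9.16% had both higher. All 5 differed at least 2-fold in the same direction within both numbers, 3 lower and 2 higher, where 0.044% of all probe sets were lower and 0.0923% higher by that rule. In nbp35-3 the arrays did not overlap wild type for 1 gene lower and 1 higher, against 8.61% and 11.1% of all probe sets. None of the 5 was 2-fold apart in the same direction within both numbers in nbp35-3, where 0.0132% of all probe sets were lower and 0.0264% higher. The 4 mutant arrays lay under both wild-type arrays for AT2G43590 and over them for AT5G39580, against 3.12% and 3.26% of all probe sets. Since the genes were chosen on these differences, nothing is read from the counts. Both mutants were compared with the same 2 wild-type arrays, so the 2 sets of differences are not independent of each other.

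**Figure D2:**
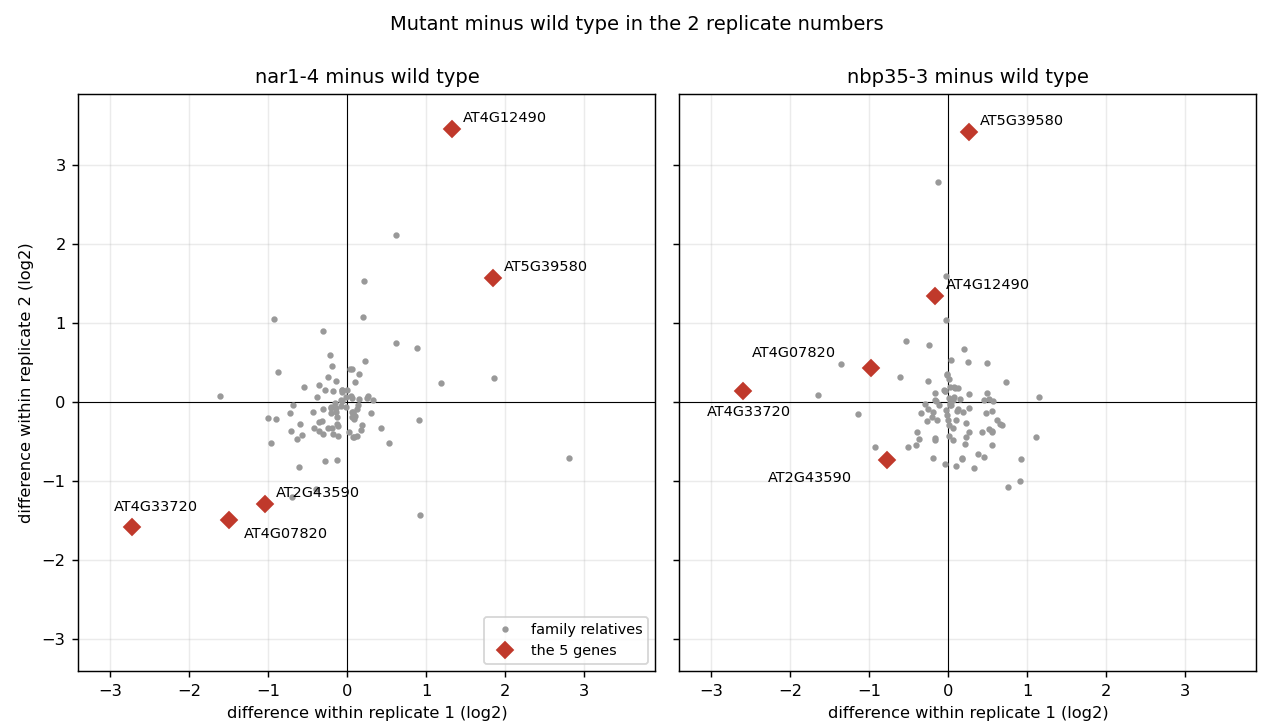
Difference from wild type (log2) within replicate number 1 (horizontal axis) and number 2 (vertical axis) in nar1-4 and nbp35-3, with diamonds for the 5 genes and dots for the 94 measured relatives of their 4 families. In nar1-4 the 5 genes are at least 1 log2 unit from 0 on both axes and no relative is so on both axes in one direction. In nbp35-3 AT4G33720 departs on the first axis only and AT5G39580 mainly on the second.

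The nbp35-3 arrays stood far apart from each other for 4 of the 5 genes. Replicate 2 was above replicate 1 by 2.20 log2 units for AT4G33720, 1.96 for AT4G07820, 2.44 for AT5G39580 and 2.04 for AT4G12490, and differed by -0.08 for the chitinase AT2G43590. In wild type the same change of number was between -0.71 and 0.54 for all 5. In nar1-4 it was between -0.98 and 0.61 for all but AT4G12490, whose 2.66 was larger than the gap in nbp35-3. The expansin and M17 levels given above moved between the same 2 nbp35-3 arrays, and their part in these values was not tested.

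Compared directly, nbp35-3 and nar1-4 differed most for AT4G12490, which was 3.51-fold lower in nbp35-3 (log2 -1.81 ± 1.08, SE) and lower within both numbers, at -1.50 and -2.12. AT4G07820 was 1.23 ± 0.67 higher in nbp35-3, with 0.52 and 1.93 within the numbers. AT4G33720 was 0.92 ± 0.75 higher, with 0.13 and 1.72, and AT2G43590 0.41 ± 0.18 higher, with 0.27 and 0.56. AT5G39580 had nearly the same mean in both mutants, with a difference of 0.13 ± 0.87 that combined -1.58 within number 1 and 1.84 within number 2.

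The families of these proteins were then examined, leaving the 5 genes aside, to see how far close relatives behaved alike. Across the 4 families 94 relatives were measured. Here and below, a gene counts as measured if the annotation names it alone for a probe set. Of the 22746 probe sets 8730 named no gene and 503 several, so a gene left out may still be on the array. By limma with Benjamini-Hochberg adjustment over all probe sets, 0 of the 94 passed in either mutant, as did 0% of all probe sets in nar1-4, in nbp35-3 and between the mutants. At an unadjusted p under 0.05 there was 1 relative in nar1-4, against 0.862% of all probe sets, and 0 in nbp35-3, against 0.611%. This limma fit counts the difference between replicate numbers as spread. With the replicate number as a block, 1009 and 1076 of all 22746 probe sets were under 0.05 in the 2 mutants. Neither count is above the share that a threshold of 0.05 gives where nothing differs. The count of relatives in that fit is not given here. Few relatives under 0.05 in the fit without the block do not show that the relatives were unchanged. The 1 relative in nar1-4 was the peroxidase gene AT5G58400, named here after its values were seen, at 3.70 and 3.41 in wild type and 4.32 and 4.16 in nar1-4 (unadjusted p = 0.0489, adjusted p = 1). Its second wild-type value was dim. No relative passed the rule of 2-fold within both numbers in either mutant. Some relatives were dim on every array, among them the peroxidase genes AT1G77100 and AT5G19880, which left little room for a lower value. Both nar1-4 arrays lay over wild type for 8 relatives (8.51%) and under it for 14 (14.9%), and both nbp35-3 arrays for 8 (8.51%) and 4 (4.26%), beside the shares of all probe sets given above. The family medians given next for nbp35-3 changed sign with the array left out. Without replicate 1 and without replicate 2 they were -0.02 and 0.15 for CAP relatives, -0.09 and 0.10 for chitinases, -0.27 and 0.07 for peroxidases, and 0.18 and -0.28 for the AZI and proline-rich family. Each sets 1 nbp35-3 array against the mean of both wild-type arrays, so differences between replicate numbers enter it. Within numbers 1 and 2 the medians were 0.11 and 0.04 for CAP relatives, with no change of sign. They were 0.17 and -0.05 for chitinases, 0.03 and -0.22 for peroxidases, and -0.03 and 0.30 for the AZI and proline-rich family.

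Of the CAP family 19 of 22 genes were measured, AT4G33720 and AT4G07820 among them, and the other 17 stayed within 0.44 of wild type in nar1-4 by their means and within 0.61 in nbp35-3. Their median difference was 0.02 in nar1-4 and 0.09 in nbp35-3, where the median over all probe sets was -0.01 and 0.01. Several of the 17, such as AT3G19690, AT2G19980 and AT5G26130, were dim on every array. A fall like that of AT4G33720 could not have shown in those genes. PR1 and PRB1 were not analysed here. The neighbours of AT4G33720 on chromosome 4 are AT4G33710 and AT4G33730, both of the CAP family. AT4G33710 was at 3.16 and 2.97 in wild type, 3.02 and 2.90 in nar1-4, and 3.13 and 2.86 in nbp35-3, under the first quartile of every array. AT4G33730 was at 5.01 and 4.17 in wild type, at 5.01 and 4.33 in nar1-4, and at 6.16 and 4.24 in nbp35-3. Being dim, AT4G33710 could not have shown a fall like that of AT4G33720. AT4G33730 was not low in nar1-4 relative to wild type as AT4G33720 was. It was highest in nbp35-3 replicate 1, where AT4G33720 was low. The largest other differences were small: AT5G66590 at -0.44 and -0.41 in the 2 mutants, PR-1-LIKE (AT2G19990) at 0.37 and AT1G50060 at -0.36 in nar1-4, and AT4G25790 at 0.50 in nbp35-3.

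Of 24 chitinase genes 15 were measured, and the 14 other than AT2G43590 had a median difference of -0.07 in nar1-4 and 0.01 in nbp35-3. AT2G43590 lies in a run of 6 chitinase genes on chromosome 2, from AT2G43570 to AT2G43620, all of them measured. Within this run AT2G43590 was the 1 gene lower than wild type in both mutants and both numbers. Since it was chosen on these differences, nothing is read from that contrast. AT2G43580, AT2G43600 and AT2G43610 differed from wild type by -0.07 to 0.28 in their means. AT2G43580 was dim on every array and AT2G43600 was at 3.76 to 4.31, so both had little room for a lower value. AT2G43620 was at 3.65 and 4.70 in wild type, 6.47 and 4.00 in nar1-4, and 3.49 and 4.82 in nbp35-3, so that its nar1-4 mean difference of 1.06 ± 0.95 (SE) combined 2.81 within number 1 and -0.70 within number 2. CHI (AT2G43570) was at 5.68 and 6.85 in wild type, 6.60 and 5.43 in nar1-4, and 4.53 and 6.69 in nbp35-3, with opposite signs within the 2 numbers of nar1-4 (0.92 and -1.42). Outside the run, AT1G02360 differed by -0.43 and AT3G47540 by -0.35 in nar1-4, and AT3G47540 by -0.28 and AT4G19720 by 0.29 in nbp35-3.

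**Figure D3:**
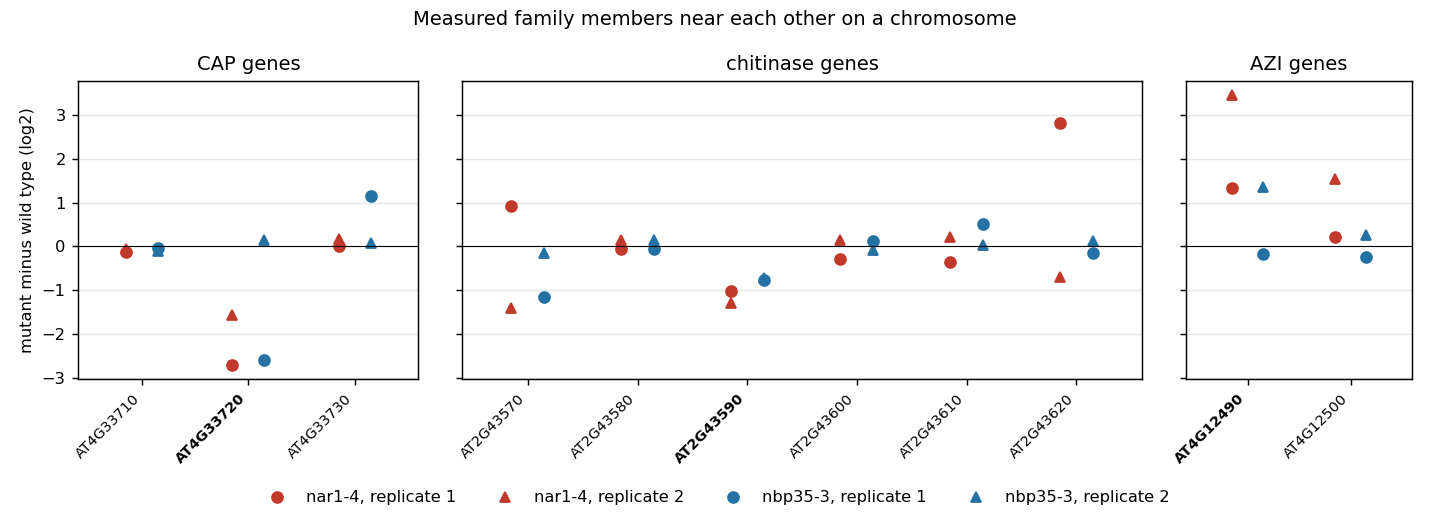
Mutant minus wild type (log2, vertical axis) within each replicate number for the measured family members around AT4G33720, AT2G43590 and AT4G12490 (bold), in chromosome order, with nar1-4 in red, nbp35-3 in blue, circles for replicate 1 and triangles for replicate 2. AT2G43590 is below 0 at all 4 points, and AT2G43620 has one point at 2.81 and the others near or under 0.

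Class III peroxidases form a large family, and 55 of 73 genes were measured. The 54 other than AT5G39580 had a median difference of -0.11 in nar1-4 and -0.07 in nbp35-3. PRX52 (AT5G05340) was at 3.37 and 3.61 in wild type, 5.23 and 3.92 in nar1-4, and 3.86 and 4.11 in nbp35-3, a mean difference of 1.08 ± 0.44 in nar1-4 that was 1.86 within number 1 and 0.31 within number 2 (unadjusted p = 0.0584), and the first wild-type value was dim. AT5G64110 was 0.79 ± 0.55 higher in nar1-4, with 0.88 and 0.69, and AT3G01190 differed by -0.95 ± 0.38, with -0.70 and -1.20. In nbp35-3 the largest mean differences were -0.77 for AT5G58390, -0.74 for AT5G19890 and -0.54 for AT4G36430. AT5G58390 was at 3.27 in nbp35-3 replicate 1 and between 4.91 and 5.88 on the other arrays, so its low value was dim.

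The peroxidase relatives also moved with the array in nbp35-3. Within number 1, 32 of the 54 were above wild type, and within number 2, 15 were, with medians of 0.03 and -0.22, while over all probe sets 52.4% and 51.5% were above. In nar1-4 the counts were 20 and 20, where 50.8% and 46.4% of all probe sets were above wild type. AT4G26010, the 1 peroxidase relative at least 2-fold above wild type within number 1 in nbp35-3, was at 8.74 in nbp35-3 replicate 1 against 6.50 to 7.64 on the others. The same array had the highest EXPA7 and EXPA18, and the mean of the 3 measured root markers of 8 listed was 8.10 there, 7.38 in nbp35-3 replicate 2 and 7.59 to 7.70 on the other 4. PYK10, the remaining marker of the 3, was not raised there. It was at 11.80 on that array and at 12.01 and 12.14 in wild type. The part of root share in the peroxidase values was not tested. AT5G39580 went the other way, at 5.72 in nbp35-3 replicate 1 and 8.16 in replicate 2.

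**Figure D4:**
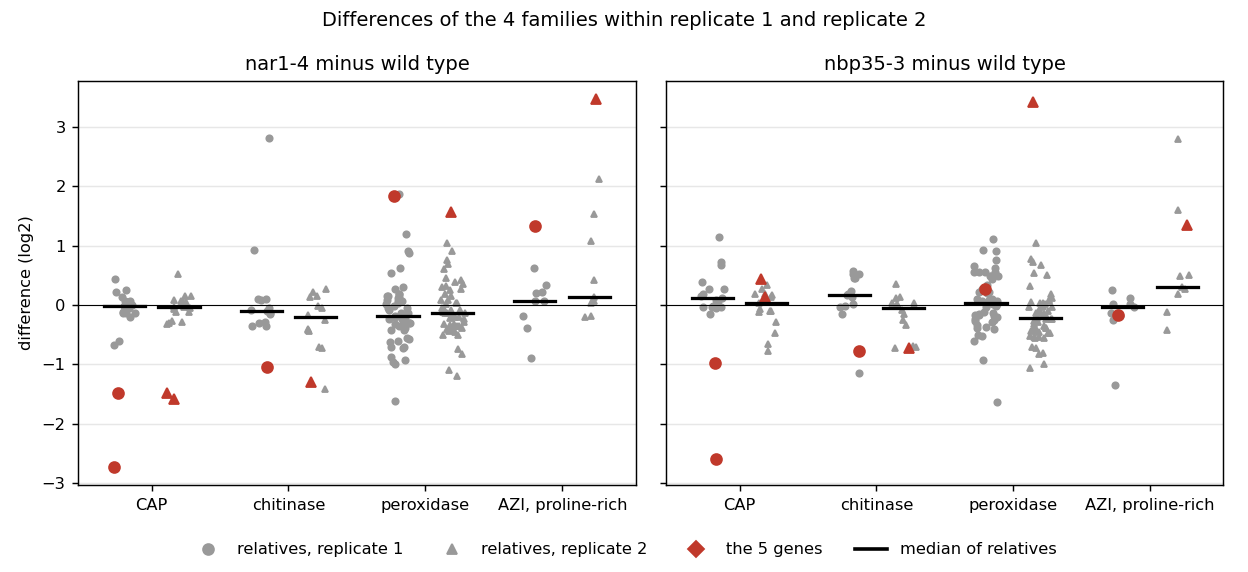
Differences from wild type (log2, vertical axis) within replicate number 1 (circles) and number 2 (triangles) for measured genes of the CAP, chitinase, peroxidase and AZI or proline-rich families in nar1-4 and nbp35-3, with the 5 genes in red, relatives in grey and a black bar at the median of relatives. The medians of relatives lie between -0.22 and 0.30, and the peroxidase relatives of nbp35-3 sit lower in number 2 than in number 1.

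In the family of hybrid proline-rich and AZI proteins 10 of 23 genes were measured, and the 9 other than AT4G12490 had a median difference of 0.18 in nar1-4 and 0.15 in nbp35-3. AZI1 and EARLI1, which lie beside AT4G12490 on chromosome 4, were not analysed here. AT4G12500, 2 genes further along, was at 3.35 and 3.86 in wild type, 3.56 and 5.39 in nar1-4, and 3.10 and 4.13 in nbp35-3. As with AT4G12490, nar1-4 replicate 2 was the highest array and nbp35-3 replicate 1 the lowest. Genes of this cluster are close copies of each other, and whether a probe set also binds a neighbour's transcript was not tested. AT4G22470 was at 3.26 and 3.56 in wild type, 3.89 and 5.68 in nar1-4, and 3.13 and 6.35 in nbp35-3, so both mutants were high in number 2, by 2.12 and 2.79, and within number 1 differed from wild type by 0.62 and -0.13. For AT4G12500 and AT4G22470 alike, wild-type replicate 1 and nbp35-3 replicate 1 were dim, and the second wild-type value of AT4G22470 was just over the quartile of 3.53. AT1G62510 differed by 1.08 and 1.60 within number 2 and by 0.20 and -0.03 within number 1. AT1G62500 differed by -0.55 in nar1-4 and -0.43 in nbp35-3, with -1.35 and 0.49 within the numbers of nbp35-3. None of these differences passed the limma test, with an unadjusted p of 0.137 or more for each.

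Other defence genes were covered unevenly. Of 26 glucanase and thaumatin-like genes 19 were measured, with a median difference of -0.03 in nar1-4 and -0.24 in nbp35-3, and 0 passed in either. The nbp35-3 median was -0.12 without its replicate 1 and -0.06 without its replicate 2, each against the mean of both wild-type arrays. Within numbers 1 and 2 it was -0.13 and -0.18. The osmotin gene OSM34 differed most in nar1-4, by -0.83 ± 0.59 (SE), with -0.50 and -1.17 within the numbers, followed by AT5G24620 at -0.39 and AT4G16260 at -0.33. In nbp35-3 AT4G36010 differed by -0.63, ATLP-1 by -0.61 and AT2G28790 by -0.45, each lower in both numbers. Of 23 genes of salicylic acid signalling and systemic resistance only GRX480, a glutaredoxin linked to that pathway, was measured in the sense given above. The usual markers of the pathway, PR1, BGL2 and PR5, were not analysed here. GRX480 was at 4.76 and 5.50 in wild type, 4.63 and 3.99 in nar1-4, and 4.74 and 4.78 in nbp35-3. Of 15 genes of pattern-triggered defence 3 were measured. WRKY22, a transcription factor of that response, was at 5.97 and 6.42 in wild type, 6.60 and 7.07 in nar1-4, and 6.49 and 6.71 in nbp35-3, a difference of 0.64 ± 0.25 in nar1-4 (limma unadjusted p = 0.0486, adjusted p = 1). The peroxidase AT5G64120 differed by 0.72 in nar1-4 and 0.02 in nbp35-3, and AT4G37290, dim on both wild-type arrays, by 0.18 and 0.23.

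The transcripts whose pattern was most like that of each gene were sought among 1891 probe sets that named 1 gene and spanned at least 1 log2 unit. Likeness was Pearson's r over the 6 arrays after the mean of each number was subtracted, which compares shape and not size, and the highest of so many values are shown. AT4G33720 was most like AT3G21670 (r = 0.998), AT2G16660 (0.996) and AT5G19950 (0.993). AT3G21670, listed as NPF6.4 of a nitrate and peptide transporter family, was at 6.98 and 8.99 in wild type, 5.88 and 8.38 in nar1-4, and 5.98 and 8.99 in nbp35-3, and AT5G19950 differed from wild type by only -0.06 and -0.04 in the 2 mutants. AT4G07820 was most like AT5G17760 (0.992), AT1G06890 (0.969) and GLC (AT1G65450, 0.965).

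The chitinase AT2G43590 was most like AT1G78070 (r = 0.994), AT4G30450 (0.973) and AT4G34400 (0.970), which differed from wild type by -0.49, -0.44 and -0.75 in nar1-4 and by -0.32, -0.25 and -0.46 in nbp35-3. The peroxidase AT5G39580 was most like AT4G15260 (0.997), AT1G19380 (0.997) and AT1G21670 (0.995). AT1G19380 was at 8.51 and 6.67 in wild type, 9.49 and 7.76 in nar1-4, and 8.64 and 8.78 in nbp35-3, a mean of 1.04 and 1.12 above wild type in the 2 mutants. AT4G12490 was most like AT1G11700 (0.996), AT3G10930 (0.991) and AT4G11100 (0.991), of which AT3G10930 stood 0.85 above wild type in nar1-4 and 0.12 in nbp35-3. None of these 15 transcripts belonged to the families above. Among the 5 genes themselves, AT2G43590 correlated with AT4G33720 at 0.85, with AT4G07820 at 0.80, with AT4G12490 at -0.85 and with AT5G39580 at -0.60 by the same measure, as a description over 6 arrays. On the values themselves these were 0.72, 0.53, -0.78 and -0.61 in the same order.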

How the data were processed

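Whole-seedling RNA of 3 genotypes was measured on 6 Affymetrix arrays, placed by their titles. The authors deposited log2 expression values of 22810 probe sets made with RMA, per the submitters' processing notes, which corrects background, quantile-normalizes arrays together and summarises probes. No software version was stated. Values were used as deposited, and 64 control probe sets were set aside, which left 22746. Probe sets were named from the platform annotation and the RefSeq table of assembly TAIR10.1: 13513 named 1 gene, 503 several and 8730 none, and 13436 matched a locus. Only probe sets naming 1 gene were used for genes.

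In R 4.3.3, all probe sets were fitted with lmFit and eBayes of limma 3.58.1 (1 mean per genotype, 3 residual degrees of freedom, two-sided), with Benjamini-Hochberg adjustment at 0.05. Each SE comes from that fit and includes the difference between replicate numbers. The fit was tested on simulated data, but how it behaves on arrays that group by replicate number was not tested. Where a locus had several probe sets, that with the highest mean was used.

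The 5 genes and the 7 gene lists (202 loci, 121 measured) were chosen with earlier results of these data known. Besides the 5, the genes named were the 3 relatives per list and mutant with the largest mean difference, genes beside the 5 on a chromosome, and the 3 most alike transcripts; those beside the 5, and peroxidases singled out in nbp35-3, were added after values were seen. The alternatives were a replicate block, trended or robust priors, quantile normalization, centring on array medians, the brighter part of the probe sets alone, fits of 2 genotypes and leaving out each array. Precision is limited by how few arrays there are, and nothing says whether replicates came from separate plants, so p-values measure only the spread between these samples. Probe and gene sequences were not used here.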

Additional observations from a re-analysis of the deposited data

Results flagged for a closer look

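For AT4G33720, AT4G07820 and AT4G12490 the difference between nbp35-3 and wild type had opposite signs in the 2 replicate numbers. AT4G33720 differed by -2.59 within number 1 and 0.14 within number 2. AT4G07820 differed by -0.97 and 0.44, and AT4G12490 by -0.17 and 1.34. Each value sets 1 array against 1 array, so the difference between the numbers was not tested. For each gene the smaller of its 2 values was under the gap between the 2 wild-type arrays, which was 0.53 for AT4G33720, 0.54 for AT4G07820 and 0.53 for AT4G12490.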

How the results depend on the processing

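The count of probe sets passing limma at an adjusted p under 0.05 was 0 in each of the 3 comparisons, and stayed 0 under every alternative run, with 196, 139 and 217 probe sets at an unadjusted p under 0.05 for nar1-4 against wild type, nbp35-3 against wild type and nbp35-3 against nar1-4. With the replicate block the counts were 0 at the adjusted threshold and 1009, 1076 and 1263 unadjusted. Deviations of same-numbered arrays correlated at 0.814, 0.694 and 0.674 between genotypes, but with 2 numbers and no label for what they share, the samples were not treated as paired. Median centring and a second quantile normalization moved no difference of the 5 genes by more than its replicate SD.

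Leaving out 1 array gave log2 differences between nar1-4 and wild type of -2.45 to -1.85 for AT4G33720, -1.76 to -1.22 for AT4G07820, -1.35 to -0.97 for AT2G43590, 1.22 to 2.20 for AT5G39580 and 1.07 to 3.73 for AT4G12490. Between nbp35-3 and wild type the ranges were -2.32 to -0.13, -1.24 to 0.72, -0.81 to -0.68, 0.62 to 3.06 and -0.43 to 1.61 in the same order. Between nbp35-3 and nar1-4 they were -0.17 to 2.02, 0.25 to 2.20, 0.23 to 0.60, -1.09 to 1.36 and -3.14 to -0.48. Of 54 peroxidase relatives, 0 were 2-fold from the wild-type mean in the nbp35-3 mean. Without its replicate 1, 1 was higher and 9 were lower, and without replicate 2, 7 were higher and 1 was lower. This alternative was chosen after seeing the data. Each count sets 1 nbp35-3 array against the mean of both wild-type arrays, so differences between replicate numbers enter it. The same holds for the ranges above, and neither separates genotype from replicate number. Within numbers 1 and 2 the median of these relatives was 0.03 and -0.22.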
